A study of Mus musculus with 32 samples.

Results

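The axon guidance ligands and receptors described here were the 69 protein-coding genes whose symbols place them among the semaphorins (Sema3 to Sema7), plexins, neuropilins, EphA and EphB receptors, ephrins, netrins, Dcc and Unc5 receptors, Robo receptors and Slits. They were taken by symbol from the 15805 protein-coding genes of the deposited neurite-enrichment tables, which hold genes that passed the authors' filter on mean counts, out of 55573 genes counted. The 69 comprised 35 ligands and 34 receptors, with 7 class 3 semaphorins, 13 other semaphorins, 9 plexins, 2 neuropilins, 9 EphA and 5 EphB receptors, 5 ephrin-A and 3 ephrin-B ligands, 4 netrins, 5 Dcc and Unc5 receptors, 4 Robo receptors and 3 Slits.

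Guidance cues steer growing axons and dendrites by binding receptors that act on the actin and microtubule cytoskeleton of the growth cone. Secreted class 3 semaphorins signal through neuropilins and plexins, ephrins through Eph receptor tyrosine kinases, netrins through Dcc and Unc5, and Slits through Robo. In the mature hippocampus many of the same molecules act at synapses and in spine remodelling, and several of their mRNAs are known to be transported into axons or dendrites and translated there.

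Primary hippocampal neurons of neonatal mice were cultured for 15 days on porous membranes, and RNA was scraped from the top of the membrane (soma) and from its underside (neurites). Some neurites that stayed above the membrane may be part of the soma fraction. The WT cultures were C57BL/6 and the Mettl3 KO cultures came from Mettl3Flox/Flox mice, and both genotypes received the same AAV expressing Cre and dTomato at DIV7. Cre stood under the hSyn promoter, which is used to drive expression in neurons. Loss of Mettl3, the methyltransferase that deposits N6-methyladenosine (m6A), was not measured by cell type in these libraries. All cultures were silenced at DIV14 for 16 h with D-AP5 (50 µM) and tetrodotoxin (1 µM), and KCl-treated cultures then received 55 mM KCl for 2 h, so that untreated means silenced only. RNA-seq held 16 libraries, with 2 of each genotype, compartment and treatment, from separate litters whose pups were pooled. Each litter used for KCl was divided between untreated and KCl-treated cultures. DART-seq, in which a fusion of APOBEC1 to the m6A-binding YTH domain edits cytidines next to m6A to uridine (C2U), held 8 WT and 8 Mettl3 KO libraries.

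RNA-seq libraries held 33789183 to 71394235 counts, and the mean count of a member ran from 10.5 (Sema3g) to 11953 (Efnb3). Mettl3 was at 1.78 to 3.30 FPKM (fragments per kilobase of exon, scaled by library size) in the 8 WT libraries and at 0.771 to 2.16 in the 8 Mettl3 KO libraries, lower in Mettl3 KO in each compartment and treatment, counted over all exons and not the deleted part alone. The paper reports almost complete loss of METTL3 protein in such cultures, and less m6A in poly(A) RNA. Map2, whose mRNA is known to enter dendrites, was called higher in untreated WT neurites (log2 change 1.73 ± 0.14). The biological variation of a gene that edgeR estimated, as a coefficient, was 0.505 for Mettl3 KO and 0.151 for WT libraries. Both libraries of the first KCl-treated Mettl3 KO insert stood apart: their summed oligodendrocyte-lineage markers were 3673 and 7339 CPM (counts scaled by library size), against 58.8 to 192 in the other 14 libraries, and their summed neuronal markers 1982 and 1132, against 3580 to 6775. Astrocyte markers summed to 9916 and 19360 CPM there (1159 to 6745 in the other 14). Microglial markers summed to 236 and 173 (10.4 to 34.7), and fibroblast and vessel markers to 141 and 762 (13.5 to 85.3).

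m6A of the members was read from the DART-seq sites. The authors called 62 sites in 19 of the 69 members, out of 18231 sites in 5643 RNAs, and 50 members had no called site. None of the members had 10 or more sites. Among members with a mean WT count of at least 1000 in the RNA-seq libraries, 16 of 36 (44.4%) had a site, against 65.5% of 7288 protein-coding genes at that depth, and below a mean count of 1000 3 of 33 (9.09%) against 8.51% of 8517. These shares are given without a test.

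The windows below show, for the 5 members with the highest neurite editing scores and for Sema4c and Epha4, whose scores lay far apart between the compartments, 10 bases on each side of the edited cytidine on the strand of the RNA, read from GRCm38, with the RAC motif in capitals, in which the A is the putative m6A and the C the edited base. Sema5a is shown with 3 sites because they lie close together in its 3′UTR, and the rest with their most edited site.
Sema5a, chr15:32695049-32695069, + strand, 18.8% C2U: tgagaaccAACtagaacatca
Sema5a, chr15:32695025-32695045, + strand, 12.9% C2U: cttacagtGACacatattgtg
Sema5a, chr15:32695055-32695075, + strand, 8.54% C2U: ccaactagAACatcatttggg
Efna3, chr3:89316700-89316720, − strand, 17.2% C2U: acgtgaacGACtatctggata
Efnb2, chr8:8617753-8617773, − strand, 15.3% C2U: gcttgtttAACggcagtgtca
Nrp2, chr1:62704046-62704066, + strand, 13.9% C2U: tgaagacaGACtgactgccag
Plxnb2, chr15:89159920-89159940, − strand, 8.67% C2U: gactacaaGACctacaccgac
Sema4c, chr1:36552862-36552882, − strand, 7.43% C2U: ggagcacgGACgctgcagaag
Epha4, chr1:77506923-77506943, − strand, 6.85% C2U: gcaagatcGACaccatcgcag

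The 62 sites had a median C2U of 4.14% (0.894% to 18.8%), against 3.54% over all 18231 sites, and 5 sites in 4 members reached 10%. By the principal coding transcript of GENCODE M21, 32 of 62 lay in the coding sequence, 24 in the 3′UTR and 3 in the 5′UTR, while 2 (both Slit3) lay downstream of the annotated end and 1 (Nrp2) outside the exons of that transcript. The last exon held 28 of 62. All 7 Efnb2 sites and all 4 Sema5a sites were in the 3′UTR, the Efna3 site shown is in exon 2 of 5 within the coding sequence and the Nrp2 site shown in the 5′UTR. The letters GAC stood at 38 sites (61.3%) and AAC at 24 (38.7%), against 53.7% and 46.3% of all sites, and GGAC at 13 (21%), against 16.2%; sites outside RAC had been removed by the authors.

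Editing scores, the sum of the mean C2U fraction over the sites of an RNA, were higher in neurites than in soma for 14 of the 19 members (73.7%) and lower for 5, while 68.8% of all 5643 RNAs were higher in neurites. The scores were deposited as pooled values, and the study's notes average soma and neurite editing over untreated and KCl-treated libraries together, so that the gap belongs to neither treatment alone, no error can be given and the differences were not tested. The median score of the members was 0.0754 in soma and 0.137 in neurites, against 0.0888 and 0.116 over all RNAs.

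The highest neurite score was that of Sema5a, a transmembrane semaphorin with thrombospondin repeats, at 0.605 in neurites and 0.301 in soma. Efnb2 followed with 0.595 and 0.35, and Nrp2 with 0.518 and 0.299. Then came Efna3 (0.361 and 0.196) and Plxnb2 (0.348 and 0.276). These 5 scores are at or above the 88.8th percentile of neurite scores over all RNAs. A score grows with the number of sites, and these members had 3 to 7, against a median of 2 over all RNAs. Divided by the number of sites, the neurite percentiles were 96.5 (Sema5a), 83.6 (Efnb2), 84.2 (Nrp2), 92.9 (Efna3) and 65.8 (Plxnb2).

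Sema4c showed a large gap between the compartments, 0.269 in neurites and 0.0201 in soma, and its 2 sites lie in the 3′UTR and the coding sequence. Slit1 (0.221), Plxna4 (0.197), Plxna1 (0.178) and Ephb6 (0.137) completed the 10 highest neurite scores. Epha4 went the other way, with 0.317 in soma and 0.112 in neurites over 5 sites. Scores in Mettl3 KO were lower than the pooled WT scores for these members (0.202 against 0.465 for Sema5a, 0.186 against 0.455 for Efnb2), which the authors' rule for calling sites requires.

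**Figure D1:**
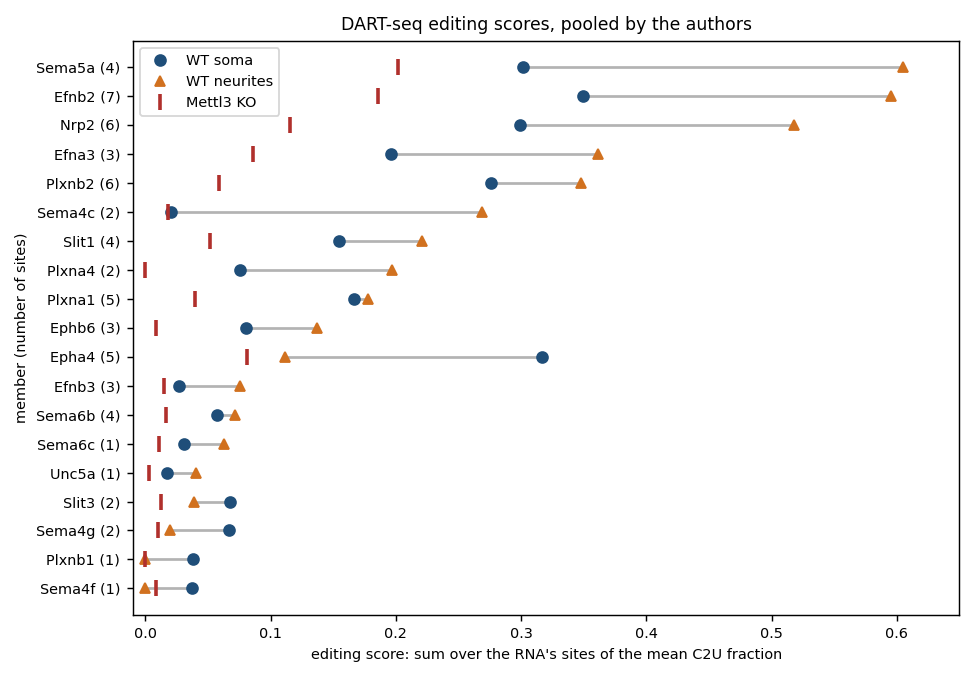
Editing scores of the 19 members with called sites, in WT soma (circles), WT neurites (triangles) and Mettl3 KO (bars), with the number of sites in parentheses. Sema5a, Efnb2 and Nrp2 have the highest neurite scores, and Epha4 is the clearest case of a higher soma score.

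Levels of the ligands and receptors spanned more than 3 orders of magnitude in untreated WT neurons, as the plot of levels by family shows. In soma, 9 of 69 members were at 10 FPKM or more and 22 were below 1 FPKM, and in neurites 8 and 20 were. Efnb3, a transmembrane ligand of EphB receptors and of EphA4, was the highest in both compartments, at 90.5 ± 8.68 FPKM in soma and 76.3 ± 4.39 in neurites (SD, n = 2). Efna3, a GPI-anchored ephrin, followed at 26.3 ± 1.83 and 23.7 ± 1.12 FPKM.

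Among the receptors, EphA4, which binds ephrins of both classes, was highest in soma (19.2 ± 0.454 FPKM), beside the semaphorin co-receptors Nrp1 (19 ± 0.70) and Nrp2 (18.5 ± 0.166). These 3 differed by less than 1 FPKM. In neurites Nrp1 was the highest receptor, at 23 ± 0.125 FPKM, with both of its neurite libraries above those of Nrp2 (20.7 and 18.4) and Epha4 (16.6 and 17.1).

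The same member led each remaining family in both compartments. Slit1, a secreted ligand of Robo receptors, was at 16.2 ± 0.708 FPKM in soma, whereas its receptors were low, the highest being Robo2 at 0.961 ± 0.0372 FPKM. Unc5a, a repulsive netrin receptor, was at 11.7 ± 0.903 FPKM, and the highest netrin, Ntn3, at 1.82 ± 0.239. Sema4f (12.7 ± 0.467) led the transmembrane semaphorins and Sema3c (2.74 ± 0.276) the secreted class 3 group. Plxna2 (8.72 ± 0.115) led the plexins, and Ephb6, which lacks kinase activity, the EphB receptors (12 ± 0.689).

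**Figure D2:**
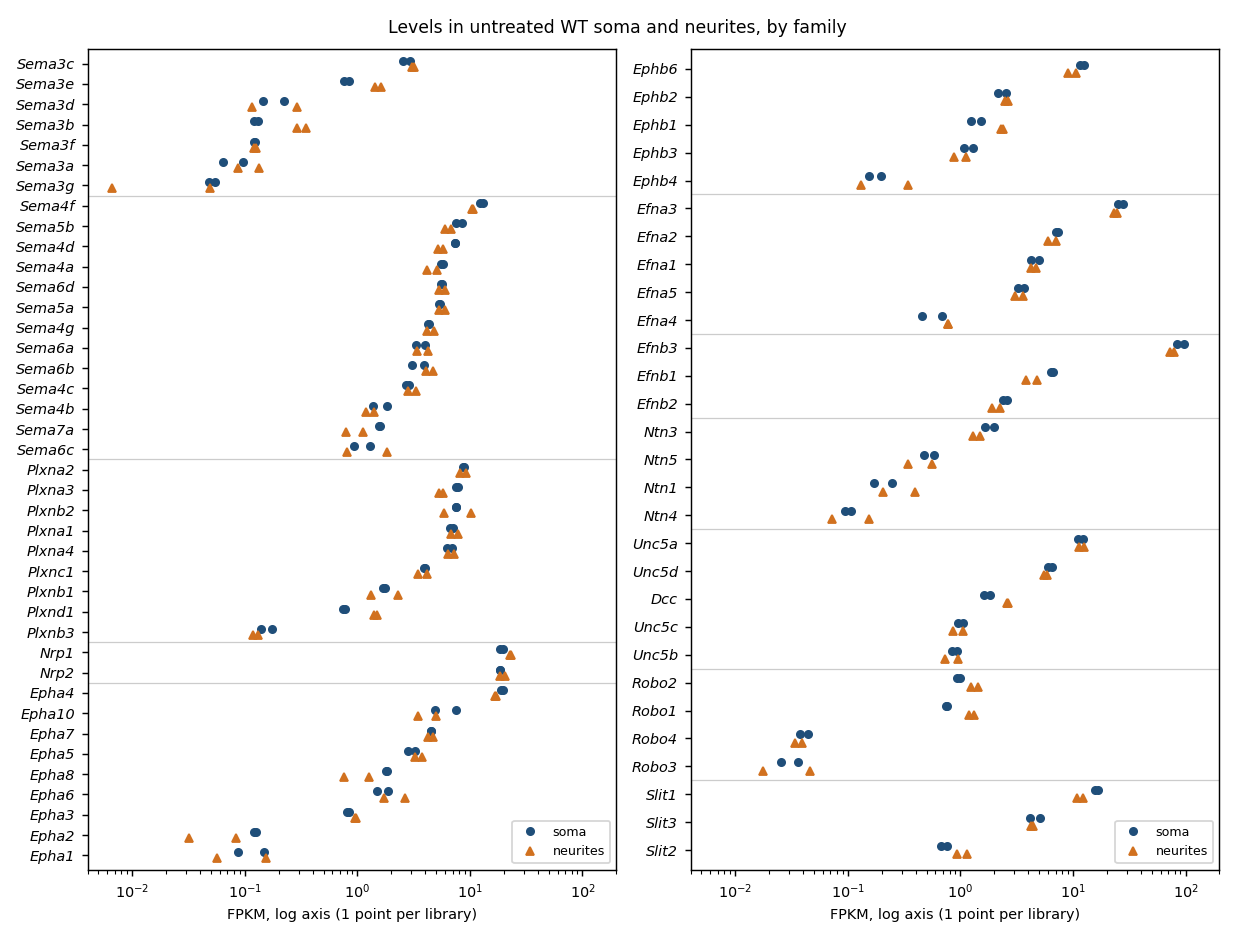
FPKM on a log axis of the 69 members in the 2 soma (circles) and 2 neurite (triangles) libraries of untreated WT neurons, with grey lines between families. Efnb3 lies farthest right in both compartments, and the 2 compartments of most members lie close together.

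Some related genes lie together in the genome. Gaps of under 500 kb separated Efna1, Efna3 and Efna4 (GRCm38 chr3:89271733-89338028), Ephb2 and Epha8 (chr4:136647539-136956816), Sema3a and Sema3e (chr5:13125414-14256689), Robo3 and Robo4 (chr9:37401897-37433246) and Sema3b and Sema3f (chr9:107597674-107710475). The exons of the members summed to a median of 6.85 kb, against 4.33 kb for all 15805 protein-coding genes. Exons of 18 members overlap those of another gene, and in Ntn5 (23.4%), Efna3 (14.1%), Plxna1 (10.7%), Efna4 (10.5%), Sema4c (7.27%) and Epha1 (6.01%) over 5% of exon bases do, on the opposite strand. Reads there could not be told apart, since counting used no strand, and reads that map to several genes were counted, so that values of close paralogs can share reads.

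The first comparison asked which guidance mRNAs are enriched in neurites of untreated WT neurons. Of 69 members, 5 were called higher in neurites and 1 lower (edgeR quasi-likelihood test at 1.5-fold and an adjusted p of 0.05 or less), beside 9.01% of 23200 genes called higher and 4.54% called lower. The 5 were Sema3e, Plxnd1, Ephb1, Robo1 and the low-count Sema3b, and the 1 lower was Epha8. The median log2 change of the members was −0.081, against −0.098 over all genes.

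A ligand and its receptor were both among the 5. Sema3e, a secreted semaphorin that binds plexin-D1 directly, was at 0.837 and 0.761 FPKM in soma (2 libraries) and 1.44 and 1.61 in neurites (2 libraries). Plxnd1, which encodes that receptor, was at 0.772 and 0.739 FPKM in soma and 1.48 and 1.41 in neurites. For both genes every neurite library lay above every soma library. The log2 change was 0.84 ± 0.16 for Sema3e (SE, adjusted p = 0.00547, edgeR) and 0.84 ± 0.17 for Plxnd1 (adjusted p = 0.00841, edgeR).

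Ephb1, a receptor tyrosine kinase for ephrin-B ligands, was at 1.53 and 1.24 FPKM in soma and 2.39 and 2.28 in neurites. Robo1, a Slit receptor, was at 0.74 and 0.765 FPKM in soma and 1.33 and 1.19 in neurites. In both the groups did not overlap, with log2 changes of 0.66 ± 0.17 (adjusted p = 0.0213, edgeR) and 0.65 ± 0.16 (adjusted p = 0.0184, edgeR). Dcc, the attractive netrin receptor, also passed the adjusted p (0.0387, edgeR) but not 1.5-fold, with 1.83 and 1.63 FPKM in soma, 2.67 and 2.57 in neurites and a log2 change of 0.50 ± 0.15.

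Epha8, an ephrin-A receptor, was the member that edgeR called lower in neurites. It was at 1.8 and 1.85 FPKM in soma and 1.27 and 0.753 in neurites, with a log2 change of −0.92 ± 0.26 (adjusted p = 0.0328, edgeR). The soma libraries lay above both neurite libraries, which differed from each other. Sema3b, which is named after its values were seen, had a mean count of 54.5, 0.132 and 0.119 FPKM in soma and 0.293 and 0.346 in neurites.

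All 3 ephrin-B ligands had log2 changes below 0 (−0.69 to −0.34). None was called by edgeR, while DESeq2 called Efnb1 lower. The 9 EphA receptors had a median of −0.28 with 6 below 0, and the 4 Robo receptors a median of 0.22 with 3 above 0. The 2 neuropilins differed little between compartments (0.18 for Nrp1 and −0.017 for Nrp2).

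Some markers of glia differed between the compartments. Of the 10 astrocyte markers 5 were called higher in untreated neurites, with a summed level of 1159 to 1182 CPM in soma and 2050 to 3143 in neurites. Gfap alone was at 506 and 518 CPM in soma and 1738 and 1232 in neurites. Aqp4, Gja1, S100b and Slc1a2 lay above both soma libraries in neurite library 1 and below both in neurite library 2. The other astrocyte markers lay above both soma libraries in each neurite library. Of 9 fibroblast and vessel markers 5 were called higher (13.5 to 18.3 CPM in soma, 34.1 to 85.3 in neurites). The 10 neuronal markers summed to 4137 to 4335 CPM in soma and 5450 to 6254 in neurites, with 2 of 10 called higher, 1 of 6 microglial and 2 of 7 oligodendrocyte-lineage markers were called higher, and no marker of these lists was at 0 in any library. Fewer cells of a type and less RNA per cell cannot be told apart in such samples, and the part of these cells in the members' changes was not tested.

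Without untreated soma library 2 every member call was lost, and the share of all genes called fell as well. The log2 changes were then 0.85 for Sema3e, 0.89 for Plxnd1, 0.75 for Robo1, 0.59 for Ephb1 and −0.83 for Epha8. Sema3e and Plxnd1 stayed called without any 1 of the other 3 libraries. Ephb1 was lost without neurite library 1 (0.62) or 2 (0.70), and Robo1 without soma library 1 (0.70) or neurite library 1 (0.56). Epha8 was lost without soma library 1 (−0.87) or neurite library 2 (−0.60), and Sema3b without any 1 of the 4. With the spread shared over all 16 libraries, edgeR called none of the 69 and none of the 23200 genes.

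The same comparison in KCl-treated WT neurons called 4 members higher in neurites and 0 lower (edgeR, 1.5-fold and adjusted p of 0.05 or less), beside 6.87% of 23028 genes higher and 2.73% lower. They were Sema3e, Plxnd1, Ephb1 and Unc5a. At an unadjusted p under 0.05 with 1.5-fold, 5 members were higher and 1 lower (9.89% and 5.92% of genes), and DESeq2 called 4 higher and 0 lower (7.04% and 3.41%).

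Under KCl the Sema3e and Plxnd1 libraries again did not overlap between compartments. Sema3e was at 1.21 and 1.46 FPKM in soma and 2.65 and 2.46 in neurites, with a log2 change of 0.95 ± 0.15 (adjusted p = 0.00376, edgeR). Plxnd1 was at 0.717 and 0.854 FPKM in soma and 1.59 and 1.35 in neurites, with a log2 change of 0.92 ± 0.17 (adjusted p = 0.00748, edgeR).

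Ephb1 was at 1.18 and 1.46 FPKM in soma and 2.49 and 2.66 in neurites after KCl, with a log2 change of 0.98 ± 0.17 (adjusted p = 0.0050, edgeR). Unc5a was at 6.2 and 6.88 FPKM in soma and 10.8 and 9.11 in neurites, with a log2 change of 0.62 ± 0.14 (adjusted p = 0.0145, edgeR). Both were higher in each neurite library than in each soma library. Dcc again passed the adjusted p (0.0338, edgeR) below 1.5-fold (0.55 ± 0.15), and Epha3 did not pass it (0.49, adjusted p = 0.0514, edgeR). Epha8 was at 1.01 and 1.47 FPKM in soma and 1.7 and 1.53 in neurites, so that its neurite libraries lay above its soma libraries after KCl.

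Sema3e and Ephb1 stayed called without any 1 of the 4 KCl-treated libraries, Plxnd1 was lost without neurite library 1 (0.79) and Unc5a without soma library 1 (0.56) or neurite library 1 (0.48), while leaving out soma library 2 raised the count from 4 to 12 (beside 7.86% of all genes higher and 2.85% lower). Of the 10 astrocyte markers 3 were called higher in KCl-treated neurites, while the median log2 change of the 10 was −0.15. They summed to 1655 to 1674 CPM in soma and 2367 to 2814 in neurites. Gfap alone was at 683 and 625 CPM in soma and 1315 and 1531 in neurites. Of 9 fibroblast and vessel markers 0 were called. The part of these cells in the changes was not tested. With the spread shared over all 16 libraries no member was called, and 0% of 23028 genes.

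**Figure D3:**
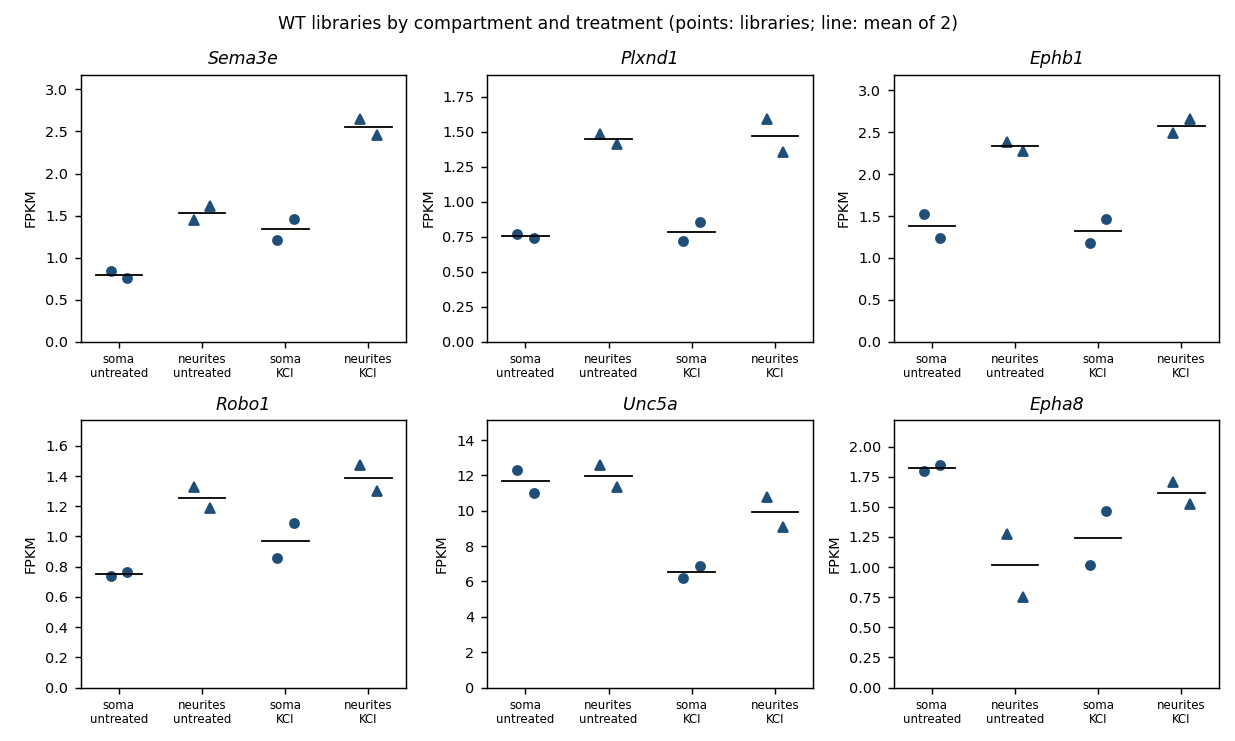
FPKM of 6 members in the 8 WT libraries, soma as circles and neurites as triangles, with the mean of each group of 2 as a line. Sema3e, Plxnd1, Ephb1 and Robo1 are higher in every neurite library than in every soma library of the same treatment, and Epha8 is lower in untreated neurites only.

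Depolarisation with KCl was compared with silencing within each compartment of WT neurons. In soma 1 member was called higher and 2 lower (edgeR, 2-fold and adjusted p of 0.05 or less), beside 3.74% of 24060 genes higher and 2.96% lower. These were Epha2, Ntn3 and Sema4b. DESeq2 called 1 higher and 3 lower in soma, with Sema6c added (3.67% and 2.57% of genes). In neurites Epha2 alone of the 69 was called (higher), beside 3.33% of 22059 genes higher and 1.7% lower, and DESeq2 called 1 higher and 0 lower (3.32% and 2.02%). At an unadjusted p under 0.05 with 2-fold, 1 member was higher and 0 were lower in neurites (5.23% and 3.36%). With the replicate number as a block edgeR called Epha2, Ntn3 and Sema4b in soma and Epha2 in neurites.

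Epha2, an ephrin-A receptor tyrosine kinase, was low without KCl. It was at 0.122 and 0.125 FPKM in untreated soma and 0.313 and 0.759 after KCl, and at 0.0838 and 0.0322 in untreated neurites and 0.451 and 0.339 after KCl. Every KCl-treated library lay above every untreated library. The log2 change was 2.05 ± 0.45 in soma (adjusted p = 0.0131, edgeR) and 2.7 ± 0.53 in neurites (adjusted p = 0.0113, edgeR), at mean counts of 101 and 47.5. At that count Epha2 in neurites is named after its values were seen, as the 1 call there.

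Sema4b, a transmembrane semaphorin, and Ntn3, a netrin, fell in soma. Sema4b was at 1.82 and 1.37 FPKM in untreated and 0.76 and 0.871 in KCl-treated soma, with a log2 change of −1.04 ± 0.20 (adjusted p = 0.0060, edgeR). Ntn3 was at 1.99 and 1.65 FPKM in untreated and 0.65 and 1.06 in KCl-treated soma, with a log2 change of −1.16 ± 0.25 (adjusted p = 0.0115, edgeR). The groups did not overlap for either gene. In neurites Sema4b went from 1.4 and 1.19 to 0.73 and 0.697 FPKM, which passed the adjusted p (0.0318, edgeR) below 2-fold (−0.82 ± 0.20).

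Further members passed the adjusted p without reaching 2-fold in soma or in neurites. The share of all genes that did so was not counted, so these are given as single genes. Efnb2, an ephrin-B ligand, rose from 2.59 and 2.4 to 4.16 and 5.13 FPKM in soma and from 2.24 and 1.9 to 3.42 and 4.36 in neurites. Its log2 changes were 0.82 ± 0.16 (adjusted p = 0.00758, edgeR) and 0.94 ± 0.17 (adjusted p = 0.0064, edgeR), and no KCl-treated library fell within the untreated range.

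Slit2, a secreted repellent, had log2 changes of 0.67 ± 0.16 in soma and 0.75 ± 0.16 in neurites (adjusted p = 0.0184 and 0.0174, edgeR), and Sema3e of 0.67 ± 0.16 and 0.78 ± 0.15 (adjusted p = 0.0169 and 0.0114, edgeR). Epha3, an ephrin-A receptor, passed in neurites (0.72 ± 0.15, adjusted p = 0.0134, edgeR), at 0.953 and 0.979 FPKM untreated and 1.57 and 1.54 after KCl. Efna1, the ephrin-A ligand next in line by p in neurites, did not pass (−0.56, adjusted p = 0.115, edgeR).

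In soma, Unc5a, Efna3 and Efna2 were lower after KCl. Unc5a fell from 12.3 and 11 to 6.2 and 6.88 FPKM in soma (log2 change −0.91 ± 0.14, adjusted p = 0.00153, edgeR). Efna3 fell from 27.6 and 25 to 14.2 and 19.3 FPKM in soma (log2 change −0.72 ± 0.16, adjusted p = 0.0125, edgeR). Sema3c, at a log2 change of 0.46, also passed the adjusted p in soma. The untreated and KCl-treated soma libraries of Unc5a, Efna3, Efna2 and Sema3c did not overlap, and the share of all genes without overlap was not counted.

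Sema4c, a transmembrane semaphorin that binds plexin-B2, showed how far KCl-treated soma replicates could differ, at 3.0 and 11.9 FPKM against 2.89 and 2.72 untreated, and it did not pass (1.34 ± 0.45, adjusted p = 0.0773, edgeR).

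Of the soma calls, Epha2 was lost without untreated soma library 1 (2.1) or 2 (2.14) or KCl-treated soma library 2 (1.25), Ntn3 without untreated library 1 (−0.95) or 2 (−1.21) or KCl-treated library 1 (−0.83), and Sema4b without untreated library 1 (−0.75) or KCl-treated library 1 (−0.92), all with the direction kept. In neurites Epha2 was lost without untreated library 2 or KCl-treated library 1. Efnb2 passed without untreated library 1 or KCl-treated library 1, and Epha8 without untreated library 1. With the spread shared over all 16 libraries no member was called in either compartment. Of all genes 1.33% were then called higher and 0.0873% lower in soma, and 1.09% and 0.104% in neurites.

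In Mettl3 KO soma the KCl response was tested over the 8 Mettl3 KO libraries, and edgeR called 0 of 69 members and 0% of 23679 genes at an adjusted p. At an unadjusted p under 0.05 with 2-fold, 3 members were higher and 2 lower, beside 3.61% and 2.78% of all genes, and DESeq2 called 1 higher (Sema4c) and 0 lower (0.925% and 0.215%). Epha2 was at 0.265 and 0.0941 FPKM in untreated and 0.994 and 0.439 in KCl-treated Mettl3 KO soma, with every KCl-treated library above both untreated ones (log2 change 1.97 ± 0.75, adjusted p = 0.751, edgeR). Ntn3 was at 1.69 and 2.09 FPKM untreated and 0.78 and 0.582 after KCl (−1.53 ± 0.50, adjusted p = 0.734, edgeR). Sema4c was at 1.83 and 1.33 FPKM untreated and 6.84 and 10.4 after KCl (2.41 ± 0.64, adjusted p = 0.573, edgeR). The KCl-treated and untreated Mettl3 KO soma libraries of Epha2, Ntn3 and Sema4c did not overlap, and the share of all genes without overlap was not counted. The difference from the WT response was not tested.

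Sema6b, a transmembrane semaphorin, was at 4.66 and 15.6 FPKM untreated and 2.49 and 3.15 after KCl, with untreated libraries far apart (−1.93, adjusted p = 0.751, edgeR). Plxnb3, a plexin known from oligodendrocytes, was at 10.04 and 0.252 FPKM in KCl-treated Mettl3 KO soma and 18.8 and 0.0958 in KCl-treated Mettl3 KO neurites, and at 0.060 to 0.311 FPKM in WT. Sema3d was at 2.06 and 0.0585 FPKM in the same soma libraries. Both stood out only in the first insert, the one in which the summed markers of every non-neuronal list were high. Without that soma library their log2 changes were 0.63 and −0.0047, against 4.92 and 4.11 with it.

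**Figure D4:**
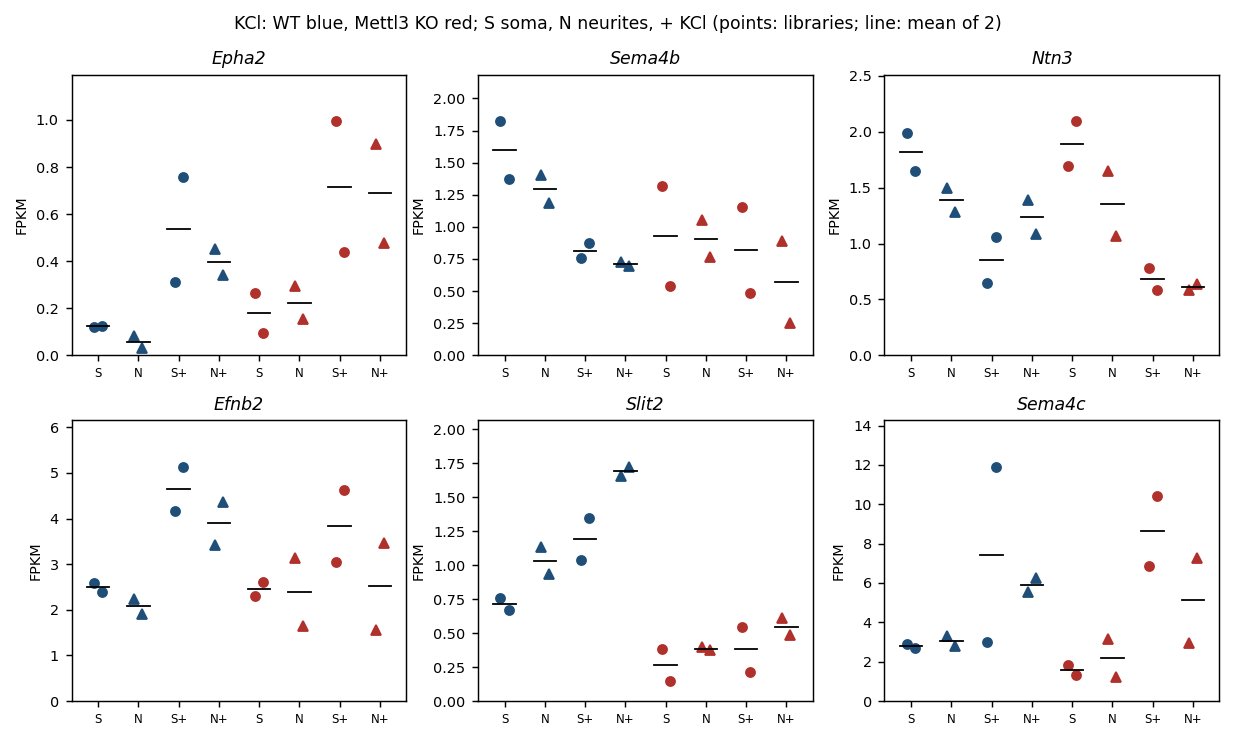
FPKM of 6 members in all 16 libraries, WT in blue and Mettl3 KO in red, S for soma, N for neurites and + for KCl, with the mean of each group of 2 as a line. Epha2 is higher in every KCl-treated library than in the untreated libraries of the same genotype and compartment, while the 2 KCl-treated WT soma libraries of Sema4c lie far apart.

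The change of neurite enrichment with KCl was tested as the difference between the 2 enrichments, with 1 term per insert. By the rule of the study's methods (1.5-fold and unadjusted p of 0.05 or less) 4 members had a higher and 1 a lower neurite-to-soma ratio after KCl, beside 2% and 1.35% of 23200 genes. At an adjusted p edgeR called 0 of the 69 and 0% of genes, and DESeq2 gave 3 higher and 0 lower unadjusted (0.944% and 1.2%). The members above the limit were Epha8, Ntn3, Unc5a and Epha10, and the 1 below it was Efna4. Over all genes 465 were higher and 314 lower, and 343 and 447 with RLE scaling.

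Epha8 had the largest difference, from a log2 neurite-to-soma ratio of −0.92 to 0.39. Its level went from 1.8 and 1.85 to 1.01 and 1.47 FPKM in soma and from 1.27 and 0.753 to 1.7 and 1.53 in neurites, so that KCl-treated libraries lay below the untreated ones in soma and above them in neurites. The difference of the ratios was 1.38 ± 0.36 (unadjusted p = 0.00444, edgeR; adjusted p = 0.999).

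Ntn3 (1.05 ± 0.36, unadjusted p = 0.0187, edgeR) and Unc5a (0.67 ± 0.20, unadjusted p = 0.00933, edgeR) were lower in KCl-treated than in untreated soma. In neurites Ntn3 was at 1.5 and 1.28 FPKM untreated and 1.39 and 1.08 after KCl, which overlapped, and Unc5a at 12.6 and 11.3 untreated and 10.8 and 9.11 after KCl, which did not. Epha10, an Eph receptor without kinase activity, had a difference of 0.64 ± 0.18 (unadjusted p = 0.00608, edgeR). Efna4, named after its values were seen as the 1 lower call, at a mean count of 60.8, had a difference of −1.12 ± 0.49 (unadjusted p = 0.0478, edgeR). Efna4 was called without untreated soma library 1 or untreated neurite library 1, and not without any of the other 6 WT libraries nor by DESeq2. Sema4g (0.63) and Sema4f (0.67) exceeded 1.5-fold and did not pass by p (unadjusted p = 0.0729 and 0.0758, edgeR).

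Epha8 passed the rule without any 1 of the 8 WT libraries. Epha10 was not called by DESeq2, with RLE scaling or without the insert term. The count of 5 fell without untreated soma library 2, KCl-treated soma library 1 or KCl-treated neurite library 1. It rose, with every call in the higher direction, without KCl-treated soma library 2 or KCl-treated neurite library 2. The share of all genes called higher fell in the former fits and rose in the latter. Ntn3 was lost without KCl-treated soma library 1 (0.52) or neurite library 1 (0.50). Unc5a was lost without the same 2 libraries (0.46 and 0.44), untreated soma library 1 (0.57) or 2 (0.56) or untreated neurite library 1 (0.67), and Epha10 without those 3 untreated libraries (0.48, 0.57 and 0.58) or KCl-treated neurite library 1 (0.58).

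Loss of Mettl3 was compared with WT in untreated cultures. At 1.5-fold and an adjusted p of 0.05 or less, edgeR called 0 of 69 members in soma, beside 0.0632% of 23750 genes higher and 0.122% lower, and 0 of 66 in neurites, beside 0.0642% of 21814 genes higher and 0.124% lower. Robo3, Robo4 and Sema3g were under the count filter in neurites. At an unadjusted p under 0.05 with 1.5-fold, 1 member was higher and 7 lower in soma (4.29% and 4.28% of all genes), and 2 were higher and 8 lower in neurites (2.59% and 4.42%). DESeq2 called 0 higher and 2 lower in soma (Epha7 and Sema3e, beside 0.792% and 0.947% of genes) and 0 higher and 1 lower in neurites (Robo1, beside 0.527% and 0.908%). The median log2 change of the members was −0.22 in soma and −0.13 in neurites, against 0.021 and 0.0071 over all genes.

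Robo1, Epha7, Sema3e and Slit2 were lower in both compartments at an unadjusted p under 0.05 with 1.5-fold, a repellent (Slit2) and one of its receptors (Robo1) among them. These 4 were 6.06% of the 66 members tested in both compartments, beside 1.78% of all 21542 genes tested in both. Robo1 was at 0.74 and 0.765 FPKM in WT and 0.477 and 0.234 in Mettl3 KO soma, and at 1.33 and 1.19 in WT and 0.396 and 0.418 in Mettl3 KO neurites. Slit2 was at 0.759 and 0.669 FPKM in WT and 0.38 and 0.145 in Mettl3 KO soma, and at 1.13 and 0.933 and 0.395 and 0.373 in neurites. For both, every Mettl3 KO library lay below every WT library of its compartment.

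The log2 changes of Robo1 were −1.08 ± 0.33 in soma (adjusted p = 0.311, edgeR) and −1.62 ± 0.33 in neurites (adjusted p = 0.103, edgeR). Those of Slit2 were −1.45 ± 0.47 (adjusted p = 0.353, edgeR) and −1.42 ± 0.47 (adjusted p = 0.422, edgeR). Neither gene passed the adjusted threshold.

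Epha7, an ephrin-A receptor, was at 4.53 and 4.47 FPKM in WT and 2.22 and 2.35 in Mettl3 KO soma, and at 4.23 and 4.72 and 2.67 and 2.49 in neurites. Its log2 changes were −0.98 ± 0.22 (adjusted p = 0.154, edgeR) and −0.79 ± 0.22 (adjusted p = 0.283, edgeR). Mettl3 KO replicates of Epha7 lay close together, and the groups did not overlap. Sema3e was at 0.482 and 0.313 FPKM in Mettl3 KO soma and 0.956 and 0.672 in Mettl3 KO neurites, below all WT libraries of the same compartment (−1.01 ± 0.31, adjusted p = 0.315, and −0.91 ± 0.30, adjusted p = 0.425, edgeR).

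In neurites the netrin receptor Unc5c (−1.57 ± 0.46, adjusted p = 0.33, edgeR) and Epha5 (−1.28 ± 0.39, adjusted p = 0.347, edgeR) had the next smallest p. Unc5c was at 0.853 and 1.05 FPKM in WT and 0.201 and 0.435 in Mettl3 KO neurites, and Epha5 at 3.72 and 3.22 and 1.54 and 1.3, without overlap. In soma Ephb6 was at 11.5 and 12.5 FPKM in WT and 7.48 and 4.75 in Mettl3 KO (−0.97 ± 0.32, adjusted p = 0.372, edgeR). Sema6b was the member with a higher value in soma, at 3.88 and 3.07 FPKM in WT and 4.66 and 15.6 in Mettl3 KO (1.54 ± 0.57, adjusted p = 0.426, edgeR), with the 2 Mettl3 KO libraries far apart.

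Astrocyte markers summed to 1943 and 2541 CPM in untreated Mettl3 KO soma, against 1159 and 1182 in WT, and to 2931 and 6745 in neurites, against 2050 and 3143. Neuronal markers summed to 3580 and 4402 CPM in Mettl3 KO soma, against 4137 and 4335, and to 3604 and 4088 in neurites, against 5450 and 6254. The median log2 change of the 10 neuronal markers was −0.16 in soma and −0.59 in neurites, with 0 called. In neurites Map2 was at 517 and 637 CPM, against 1382 and 1849 in WT, and Tubb3 at 893 and 862, against 780 and 690. The part of these cells in the lower values of the members was not tested.

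Without both libraries of the first KCl-treated Mettl3 KO insert, which enter these fits through the shared spread, edgeR called 2 members lower in soma (Epha7 and Sema3c, beside 0.518% of all genes higher and 1.25% lower) and 2 lower in neurites (Robo1 and Sema3c, beside 0.353% and 0.885%). Sema3c, named after its values were seen, was at 3.21 and 3.07 FPKM in WT and 0.932 and 0.803 in Mettl3 KO neurites. Without untreated Mettl3 KO soma library 1, edgeR called 7 in soma (beside 2.64% of all genes higher and 8.7% lower), namely Sema6b higher (2.16) and Epha5, Epha7, Ephb6, Robo1, Sema3e and Slit2 lower (Robo1 at −1.69 and Slit2 at −2.31), the remaining Mettl3 KO soma library being assumed to vary like the other groups.

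**Figure D5:**
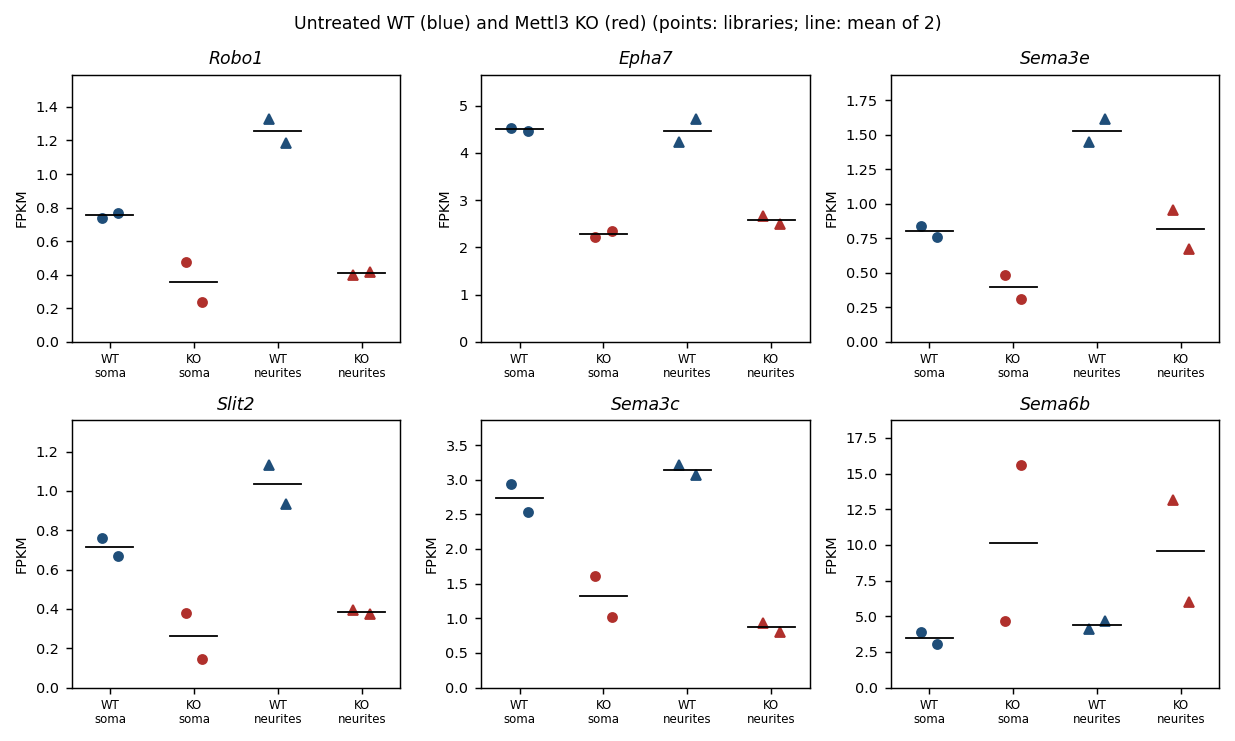
FPKM of 6 members in untreated WT (blue) and Mettl3 KO (red) libraries, soma as circles and neurites as triangles, with the mean of each group of 2 as a line. Robo1, Epha7, Sema3e, Slit2 and Sema3c are lower in every Mettl3 KO library than in every WT library of the same compartment, and the Mettl3 KO libraries of Sema6b spread widely.

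Within untreated Mettl3 KO cultures edgeR called 0 of 68 members between neurites and soma, and 0% of 22557 genes; 0 members passed an unadjusted p under 0.05 with 1.5-fold (3.91% of genes higher and 1.58% lower), and DESeq2 called 0 members (0.0532% and 0.0222% of genes). Sema3e (0.99 ± 0.49), Dcc (0.99 ± 0.61), Ephb1 (0.89 ± 0.61) and Sema5a (0.54 ± 0.32) had positive log2 values, and Unc5c (−1.01 ± 0.61) and Efna1 (−0.92 ± 0.73) negative ones, each with an adjusted p of 0.84 or more (edgeR). Sema3e was at 0.482 and 0.313 FPKM in Mettl3 KO soma and 0.956 and 0.672 in Mettl3 KO neurites, so that its neurite libraries lay above its soma libraries, as in WT.

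As a difference of neurite enrichment between genotypes, 1 member passed the study's rule (1.5-fold and unadjusted p of 0.05 or less) and was higher in Mettl3 KO, beside 2.91% of 22942 genes higher and 1.28% lower, with 0 of the 69 and 0% of genes at an adjusted p (edgeR), and DESeq2 gave 2 higher and 0 lower unadjusted (5.85% and 1.06%). This was Sema7a, a GPI-anchored semaphorin, at 1.6 and 1.57 FPKM in WT soma, 1.11 and 0.784 in WT neurites, 2.58 and 1.65 in Mettl3 KO soma and 3.6 and 1.7 in Mettl3 KO neurites (1.02 ± 0.43, unadjusted p = 0.0425, edgeR). WT neurites lay below WT soma and the Mettl3 KO compartments overlapped. Epha8 (1.0), Ephb3 (0.68), Plxna2 (0.60), Plxna3 (0.66) and Efna1 (−0.71) followed by p and did not pass. Sema7a did not pass without the insert term (1.06) or on the 8 untreated libraries alone (1.02), and the replicate numbers were not shown to pair soma with neurites. Leaving out 1 library moved the count of members that passed. It was 13 without Mettl3 KO soma library 2 (5 higher and 8 lower, beside 3.84% and 4.71% of all genes) or neurite library 2 (6 and 7, beside 4.77% and 3.82%), and 10 without Mettl3 KO soma library 1 (5 and 5, beside 13.6% and 8.01%) or neurite library 1 (5 and 5, beside 13.5% and 7.98%). Sema7a passed without either library of Mettl3 KO insert 2 but was lost without each of the other 6 untreated libraries (0.78 to 1.27).

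Beyond the ligands and receptors, 61 genes known to act with or downstream of them were counted. In untreated WT, 5 of the 61 were called higher in neurites and 2 lower, beside 9.01% and 4.54% of all genes, and 7 higher and 0 lower after KCl, beside 6.87% and 2.73% (edgeR, 1.5-fold and adjusted p of 0.05 or less). Limk1, a kinase that phosphorylates cofilin, was called higher in neurites under both conditions (0.70 ± 0.15 and 1.19 ± 0.15), as was Dpysl3, a collapsin response mediator (0.65 ± 0.10 and 0.74 ± 0.10). In untreated neurites Flrt3 (0.60), Dock1 (1.01) and Arhgef12 (0.61) were also higher, and Ntng1 (−1.26) and Mical3 (−0.59) lower. After KCl, Draxin (1.3), Cdk5r1 (1.04), Rgmb (0.59), Src (0.71) and Arhgap39 (0.80) were also higher.

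In KCl-treated soma Flrt3, an adhesion molecule that binds Unc5 receptors, was called higher (1.55 ± 0.11), and Limk1 (−1.0 ± 0.15) and the Cdk5 activator Cdk5r1 (−1.33 ± 0.17) lower, 1 and 2 of the 61, beside 3.74% and 2.96% of all genes. In KCl-treated neurites none of the 61 was called at 2-fold (edgeR). In Mettl3 KO against WT 0 of the 61 were called in soma and 0 in neurites (edgeR, adjusted p).

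Expression and sites were set side by side. None of Robo1, Epha7, Sema3e and Slit2, the 4 members lower in both compartments of Mettl3 KO by unadjusted p, had a called site, and none of the 6 members called between compartments in untreated WT had one, while 50 of the 69 had none. The 19 members with sites had a median log2 change of −0.25 in Mettl3 KO soma and 0.0051 in Mettl3 KO neurites, and those without −0.19 (50 members) and −0.14 (47 members). Members with sites were counted more deeply, at a median of the mean counts of 3258 against 559 in the soma comparison, and sites can be called only where coverage allows.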

How the data were processed

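RNA-seq and DART-seq of soma and neurite fractions were analysed from the deposited tables. The authors aligned reads to mm10 with STAR 2.7.7a and counted exon fragments with featureCounts 2.0.1 (Ensembl 97, GRCm38, multi-mapping reads included, no strand setting, per the file headers), and the deposited values are whole-number counts without normalization. The DART-seq editing score is a sum of mean C2U fractions per RNA computed by the authors, and a site's deposited value is the mean C2U fraction of the WT libraries. Sites were kept by the authors within RAC, in at least 2 replicates and with more editing than in Mettl3 KO. Both are pooled, so depth per site is unknown. The authors' own comparison columns (fold changes, p-values) were not used.

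Counts were tested in edgeR 4.0.16 (R 4.3.3) by two-sided quasi-likelihood F-tests after TMM scaling, with Benjamini-Hochberg adjustment over every gene that averaged 10 or more counts in the groups compared. WT comparisons were fitted on the 8 WT libraries, Mettl3 KO against WT on 16, and comparisons within Mettl3 KO on 8. Thresholds followed the study's methods, with 2-fold also for KCl in neurites, and Xtail was replaced by an edgeR interaction with 1 term per insert. FPKM used TMM factors of the 16 libraries and the exon length of the table. Each group holds 2 libraries from distinct litters. P-values rest on a spread between replicate libraries that is pooled over the 8 or 16 libraries of a fit, of 33789183 to 71394235 counts each. It is not the spread of the groups compared alone. Apart from the insert term of the interactions, libraries of 1 litter entered the main fits as independent. Reads without molecular identifiers are not independent molecules. The model was also run on counts simulated from its own fitted spread, equal in all groups. That run cannot show how the model behaves where Mettl3 KO and WT libraries differ in spread.

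The members, the 61 pathway genes and the marker lists were chosen with earlier results of these data known. Named members are those past a threshold with a mean count of at least 100, filled to 6 by smallest p, the highest of each family, and the 10 highest neurite editing scores. Regions, overlaps and windows came from GENCODE M21 and GRCm38 with pysam 0.24.0. Alternatives were DESeq2 1.42.0, RLE scaling, no filter or a mean count of at least 100, other sets of libraries, a replicate block, and each library left out in turn; fits without the first KCl-treated Mettl3 KO insert and with crossed replicate numbers were added after seeing the data. For sites, a C2U of at least 0.10 and assignment by exon overlap were tried, and scores divided by the number of sites, which keep their direction by construction.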

Additional observations from a re-analysis of the deposited data

Results flagged for a closer look

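In WT, the neurite-to-soma ratio of 5 members differed between KCl-treated and untreated cultures by the study's unadjusted rule, each in an interaction test in edgeR that did not pass after adjustment. The differences of the log2 ratios were 1.38 for Epha8, 1.05 for Ntn3, 0.67 for Unc5a, 0.64 for Epha10 and −1.12 for Efna4, the last at a mean count of 60.8. Efna4 was called without untreated soma library 1 or untreated neurite library 1, and not without any of the other 6 WT libraries nor by DESeq2. Between genotypes Sema7a differed by 1.02 in the same kind of test, unadjusted, and did not pass without the insert term (1.06) or on the 8 untreated libraries alone (1.02).

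Epha7 was called under KCl in soma of neither genotype. It was at 4.53 and 4.47 FPKM untreated and 5.63 and 5.45 after KCl in WT soma, and at 2.22 and 2.35 and 1.96 and 2.21 in Mettl3 KO soma, a difference of −0.43 between the log2 ratios of the group means (Mettl3 KO minus WT). This difference was not tested.

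KCl-treated Mettl3 KO neurites entered no comparison. There both libraries were at least 1.5 times the higher untreated one for Epha2, at 0.90 and 0.476 FPKM against 0.293 and 0.155 untreated (a ratio of means of 3.07), and for Epha1, at 0.665 and 0.242 against 0.0886 and 0.12 (4.34). The first library of each pair of KCl-treated values is the insert with high glial markers, whose part in these values was not tested.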

How the results depend on the processing

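Counts of called members kept within 1.5 times the reported count in 51 of 77 cases with another setting, and in 25 of 48 with 1 library left out. Without a filter on low counts they were 10 for untreated neurite enrichment (6 reported), beside 4.96% of all genes higher and 3.93% lower. For KCl in soma there were 5 (3 reported, 2.49% and 1.98%) and for the KCl change of enrichment 8 (5 reported, 1.78% and 1.27%). For the Mettl3 KO change of enrichment there were 4 (1 reported, 4.48% and 1.15%), and for KCl in Mettl3 KO soma 3 (0 reported, 1.58% and 0.203%). A mean count of at least 100 gave 0 for KCl in neurites (1 reported, beside 3.14% and 1.38% of genes), because Epha2 was below it. Sharing the spread over 16 libraries gave 0 for both WT enrichments, with 0% of genes. It gave 0 for the WT KCl responses in soma (1.33% of genes higher and 0.0873% lower) and neurites (1.09% and 0.104%). For the KCl change of enrichment it gave 2 (0.427% and 0.828%). DESeq2 gave 3 for that change (0.944% and 1.2%) and, for Mettl3 KO against WT, 2 in soma (0.792% and 0.947%) and 1 in neurites (0.527% and 0.908%). It gave 2 for the Mettl3 KO change of enrichment (5.85% and 1.06%) and 1 for KCl in Mettl3 KO soma (0.925% and 0.215%). RLE scaling gave 2 for the Mettl3 KO change of enrichment (3.47% and 1.2%), and the 8 untreated libraries alone 0 (0.806% and 0.706%). The 4 libraries of the comparison alone gave 4 for Mettl3 KO neurites (0.174% and 0.449%). Adjusted p gave 0 for both changes of enrichment, with 0% of genes. Without the first KCl-treated Mettl3 KO insert the counts were 2 in Mettl3 KO soma (0.518% of genes higher and 1.25% lower) and 2 in neurites (0.353% and 0.885%). For the Mettl3 KO change of enrichment there were then 3 (3.09% and 1.11%). The cause was not tested.

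Leaving out 1 library gave 0 to 4 calls for untreated enrichment, 2 to 12 for KCl-treated enrichment, 0 to 4 for KCl in soma, 0 to 3 for KCl in neurites, 2 to 17 for its change of enrichment, 0 to 7 in Mettl3 KO soma and 0 to 13 for the Mettl3 KO change of enrichment. Of the log2 changes of named members, 1 of 288 with 1 library left out and 1 of 444 under other settings reversed, both Sema3d under KCl in Mettl3 KO soma: −0.0047 without KCl-treated soma library 1 and −0.038 without that insert, against 5.07 without KCl-treated soma library 2. Of the 62 sites 5 had a C2U of at least 0.10, and exon overlap gave 60.

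Replicate numbers were not shown to pair soma with neurites: the replicate differences correlated at −0.14 and 0.015 in untreated and KCl-treated WT, 0.072 and 0.90 in Mettl3 KO. Untreated and KCl-treated cultures shared litters, and their replicate differences correlated at 0.070 in WT soma, −0.086 in WT neurites and 0.14 in Mettl3 KO soma. With a replicate block untreated WT enrichment had 6 calls (Epha10 in place of Sema3b), beside 7.83% of genes higher and 3.87% lower. With the numbers crossed, a setting chosen after seeing the data, it had 6, beside 8.56% and 4.52%. The block left the other counts as reported (4, 3, 1 and 0). Without it the changes of enrichment had 4 calls under KCl (1.99% and 1.71% of genes) and 0 in Mettl3 KO (0.588% and 0.702%).

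With 2 libraries a group, small differences could not be detected, and in Mettl3 KO the spread left larger ones unresolved.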
